A study of Mus musculus with 21 samples.

Results

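Levels of 9 genes of the Ms4a family of membrane proteins were described in brain macrophages: Ms4a7, Ms4a14, Ms4a4a, Ms4a4b, Ms4a4c, Ms4a6b, Ms4a6c, Ms4a6d and Ms4a8a. They were chosen by name from the 57180 genes of the count table, which holds 21 genes named Ms4a. All 9 had enough counts to be tested. RNA came from cells sorted by FACS from mouse brain, in 21 libraries. The MLC libraries held monocyte-derived microglia from transplanted monocytes of the genotype Osb-GFP, 6 taken after seizure and 3 after saline. The MG libraries held transplanted microglia, also Osb-GFP, 4 after seizure and 3 after saline. The NoTx libraries held microglia of mice without a transplant, of the genotype CX3CR1-CreER+/-; CSF1R fl/fl, 3 after seizure and 2 after saline. Seizures were brought on by kainic acid, an agonist of glutamate receptors, 5 days before. By the title, cells were replaced in newborn mice and studied in adults. The labels give no exact ages and do not say whether Cre was induced or how much of its own microglia a host kept. Genotype and transplantation cannot be told apart where NoTx is compared. Per the labels, batch 1 holds the seizure libraries and batch 2 the saline ones, and the effects of treatment and batch cannot be told apart.

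MS4A proteins are small proteins that cross the membrane several times, with both ends inside the cell. Their best known members are CD20 of B cells, encoded by Ms4a1, and the beta chain of the high-affinity IgE receptor of mast cells, encoded by Ms4a2, and both act within receptor complexes at the cell surface. Several of the others are expressed by macrophages and monocytes, and the genes lie together in a cluster. In humans, variants near MS4A4A and MS4A6A are associated with the risk of Alzheimer's disease and with the level of soluble TREM2, a receptor of microglia. In the mouse brain, Ms4a7 is widely used as a marker of macrophages at brain borders and of bone-marrow-derived cells that settle in the parenchyma.

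Total counts per library, in megacounts (M), were 6.57 to 37.5 M in MLC after seizure and 36.8 to 50.3 M after saline, 7.64 to 47.4 M and 38.9 to 45.4 M in MG, and 14.9 to 73.8 M and 36.5 to 39.7 M in NoTx. Among the seizure libraries, MG replicates 3 and 4 detected 15419 and 15362 genes from 47.4 and 34.1 M, and MLC replicate 5 detected 13082 genes, fewer than any other library. The codes of MLC seizure replicates 3 and 6 are those of replicates 2 and 4 plus the suffix 11b, and the labels do not say whether such libraries come from the same animal. Xist exceeded 50 CPM in all 7 MG libraries and in 0 of 9 MLC libraries. The sum of the Y-linked genes Ddx3y, Uty, Eif2s3y and Kdm5d exceeded 50 CPM in all MLC libraries. It also did in 2 of 3 MG saline libraries and in 4 of 4 MG seizure libraries, which thus held transcripts of both sexes. The sex make-up of the cells and their origin cannot be told apart where MLC is set against MG. Xist also exceeded 50 CPM in 2 of 3 NoTx seizure libraries and in 0 of 2 NoTx saline libraries. The Y-linked sum did in 1 of 3 and in 2 of 2. Libraries were amplified by PCR without named molecular identifiers, and limits drawn from counts cover counting error only.

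The family was far more abundant in MLC than in MG. The summed level of the 9 genes was 7193 ± 2146 CPM (counts of a gene scaled to a common library size) in MLC and 955 ± 335 CPM in MG after seizure (SD, n = 6 and 4), and 5138 ± 1241 CPM in MLC and 763 ± 128 CPM in MG after saline (n = 3 each). In an edgeR quasi-likelihood test across 18867 genes, at a Benjamini-Hochberg adjusted p under 0.05, 7 of the 9 genes were higher in MLC after seizure and 6 of 9 after saline. None was lower. Of all genes tested, 2.51% were higher and 3.37% lower after seizure, and 0.779% were higher and 0.806% lower after saline. The median log2 fold change of the 9 genes was 4.12 after saline, against 0 over all genes tested. After seizure it was 3.95 with Ms4a8a, which had 0 counts in MG, set at its lower bound, again against 0. In bulk samples, fewer cells of a type and less RNA per cell cannot be told apart. Without MG replicates 3 and 4 and MLC replicate 5, 6 genes were called after seizure, and the log2 fold changes were larger, at 10.87 for Ms4a7, 4.33 for Ms4a6c and 2.68 for Ms4a6b. No fold is given there for Ms4a14, Ms4a4a and Ms4a4b, which then had 2, 1 and 0 counts in MG. Without the 11b libraries 7 were called.

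**Figure D1:**
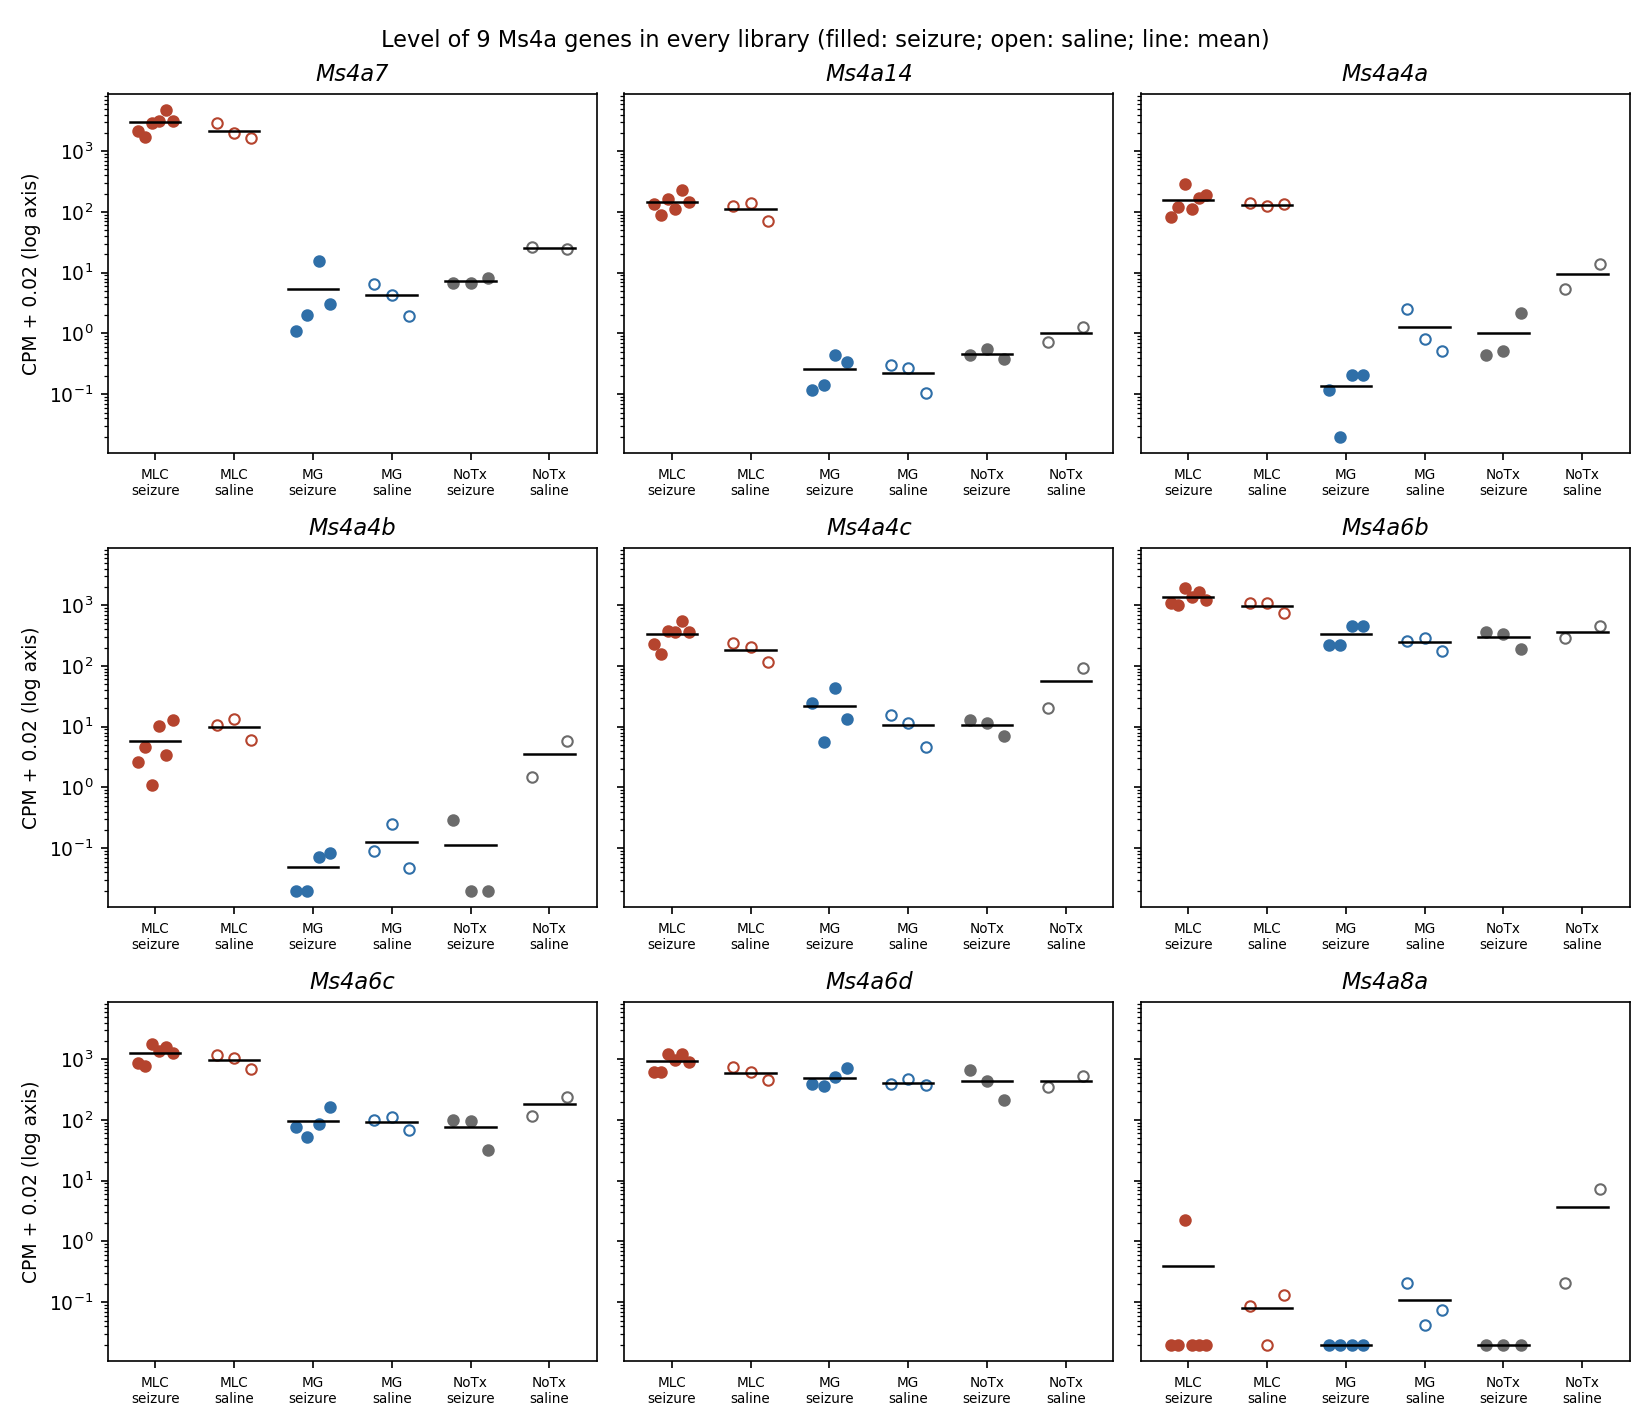
Each point is a library, in CPM plus 0.02 on a log axis, with filled points for seizure, open points for saline and a line at the group mean. For Ms4a7, Ms4a14 and Ms4a4a all MLC points lie above all MG and NoTx points, while the points of Ms4a6d overlap between MLC, MG and NoTx within each treatment.

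Ms4a7 and Ms4a14, neighbours on the same strand, were higher in MLC after both treatments. Ms4a7 had a lowest level of 1684, a median of 3025 and a highest of 4786 CPM in the 6 MLC libraries after seizure, against 1.08, 1.99, 15.3 and 3.02 CPM in MG (a log2 fold change of 9.08, SE 0.74, adjusted p = 2.00e-08). After saline it had 2859, 1985 and 1645 CPM in MLC, against 6.38, 4.31 and 1.92 CPM in MG (9.0, SE 0.86, adjusted p = 5.04e-07). Every MLC library was above every MG library, and MG replicate 3 after seizure was the highest of the MG libraries. Without that library the seizure log2 fold change of Ms4a7 was 10.48, and limma-voom gave 10.49. Ms4a14, a gene with a coding sequence of 3696 bases, far longer than that of the other members, had 90.2, 142 and 231 CPM as its lowest, median and highest level in MLC after seizure. In MG after seizure it had 0.0982, 0.125, 0.424 and 0.318 CPM (log2 fold change 9.02, SE 0.57, adjusted p = 1.31e-09). After saline Ms4a14 had 124, 141 and 70.4 CPM in MLC, against 0.279, 0.251 and 0.0833 CPM in MG (9.05, SE 0.66, adjusted p = 2.26e-08). The MG levels of Ms4a14 rest on 28 counts over 4 seizure libraries and 26 over 3 saline libraries.

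The start-site windows of both genes are shown because both moved together. Each window runs from 250 bases before the start to 50 after, in the GRCm38.p6 build of RefSeq, and capitals mark matches to motifs of myeloid gene control.
Ms4a7 (chr19:11336097-11336396, minus strand): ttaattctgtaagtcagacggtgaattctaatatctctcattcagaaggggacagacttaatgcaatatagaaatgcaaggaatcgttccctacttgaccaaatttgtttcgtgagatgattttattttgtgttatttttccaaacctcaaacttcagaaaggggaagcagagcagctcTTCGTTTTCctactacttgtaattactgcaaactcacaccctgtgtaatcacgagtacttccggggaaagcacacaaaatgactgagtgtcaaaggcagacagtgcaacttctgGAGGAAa
Ms4a14 (chr19:11314405-11314704, minus strand): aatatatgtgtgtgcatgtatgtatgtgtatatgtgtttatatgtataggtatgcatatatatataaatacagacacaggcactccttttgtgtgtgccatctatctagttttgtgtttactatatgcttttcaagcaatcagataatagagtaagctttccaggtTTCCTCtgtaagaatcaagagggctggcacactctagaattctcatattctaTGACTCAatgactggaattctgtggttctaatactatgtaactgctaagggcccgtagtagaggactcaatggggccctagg
In the Ms4a7 window the capitals are an ISRE match (GAAANNGAA, the core of an interferon-response element) on the other strand 71 bases before the start, and a PU.1 core (GAGGAA, bound by the myeloid factor PU.1) 44 bases after it. A second annotated start of Ms4a7 has an ISRE match and an AP-1 match (TGANTCA). In the Ms4a14 window they are a PU.1 core on the other strand 84 bases before the start and an AP-1 match 32 bases before it. Windows were found for 8 of the 9 members, all but Ms4a6d. These 8 members had 9 windows, 2 of them of Ms4a7. Searched on both strands, the PU.1 core was in 4 of 9 windows, AP-1 in 4 and ISRE in 4, the last from 3 members. EICE (GGAANNGAA, a joint site of PU.1 and interferon regulatory factors) was in 1 window and C/EBP (TTGCNNAA) in 0. Of 32851 windows of all genes, 28.3% held the PU.1 core, 7.81% AP-1, 8.56% ISRE, 8.24% EICE and 10.8% C/EBP. A match is a description of the letters and not a binding site.

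Among the Ms4a4 genes, Ms4a4a, whose protein in mouse macrophages associates with the fungal receptor dectin-1, was close to absent in MG. It had a lowest level of 82.7, a median of 145 and a highest of 283 CPM in MLC after seizure, against 0.0982, 0, 0.186 and 0.191 CPM in MG. The log2 fold change was 10.05 (SE 0.81, adjusted p = 1.87e-08), resting on 14 counts over the 4 MG libraries. After saline Ms4a4a had 142, 123 and 133 CPM in MLC, against 2.49, 0.798 and 0.500 CPM in MG (6.70, SE 0.79, adjusted p = 1.24e-05), and without MG replicate 1 its log2 fold change was 7.69. The MLC libraries stood above all MG libraries after either treatment.

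Ms4a4c had 158, 355 and 549 CPM as lowest, median and highest level in MLC after seizure, against 24.7, 5.61, 43.2 and 13.3 CPM in MG (a log2 fold change of 3.95, SE 0.58, adjusted p = 9.09e-05). After saline it had 237, 202 and 117 CPM in MLC, against 15.7, 11.5 and 4.64 CPM in MG (4.12, SE 0.69, adjusted p = 0.00102). The groups did not overlap. Ms4a4b, first described in T cells, was the scarcest of the 3 Ms4a4 members in MLC. It had 1.09, 3.98 and 12.8 CPM as lowest, median and highest level in MLC after seizure, while 2 MG libraries had 0 and 2 had 0.0531 and 0.0635 CPM. That difference passed (log2 fold change 7.11, SE 1.59, adjusted p = 0.00802) and rests on 4.02 counts over the MG libraries. Without MG replicates 3 and 4 and MLC replicate 5 its adjusted p was 0.055, with a range of 1.2e-08 to 0.055 over the other fits. After saline Ms4a4b had 10.6, 13.3 and 5.93 CPM in MLC against 0.0699, 0.228 and 0.0278 CPM in MG, and did not pass with edgeR (6.45, SE 1.76, adjusted p = 0.0707), although the libraries did not overlap. DESeq2 (adjusted p = 1.64e-06), limma-voom (1.5e-05) and edgeR on the compared groups alone (0.00421) called it, over a range of 1.64e-06 to 0.356. The summed levels of 10 T and NK cell markers reached 6.39 CPM in MLC and 14.3 CPM in MG after seizure, with Cd3e, a defining chain of the T cell receptor complex, at 0 in both. After saline MLC replicate 2, the library with the most Ms4a4b, had a sum of 11.2 CPM with 3.16 CPM of Cd3e, while the other 2 MLC libraries had 0.0217 and 0.678 CPM and the MG libraries 0.833 to 1.54 CPM, all without Cd3e. Without that library the log2 fold change of Ms4a4b was 6.22 (adjusted p = 0.2), and 10.6 and 5.93 CPM of Ms4a4b stood in the other MLC libraries.

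The Ms4a4b and Ms4a4c windows are shown because these genes are near copies: their coding sequences are 91.7% identical over 678 aligned bases. The first run of capitals is a PU.1 core, 64 bases before the start in Ms4a4b and 61 in Ms4a4c.
Ms4a4b (chr19:11443308-11443607, plus strand): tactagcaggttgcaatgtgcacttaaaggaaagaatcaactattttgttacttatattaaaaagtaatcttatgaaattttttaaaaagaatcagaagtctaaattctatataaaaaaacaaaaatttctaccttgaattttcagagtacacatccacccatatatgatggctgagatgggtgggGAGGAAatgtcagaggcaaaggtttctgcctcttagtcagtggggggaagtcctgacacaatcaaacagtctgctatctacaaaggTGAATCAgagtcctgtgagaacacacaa
Ms4a4c (chr19:11407411-11407710, plus strand): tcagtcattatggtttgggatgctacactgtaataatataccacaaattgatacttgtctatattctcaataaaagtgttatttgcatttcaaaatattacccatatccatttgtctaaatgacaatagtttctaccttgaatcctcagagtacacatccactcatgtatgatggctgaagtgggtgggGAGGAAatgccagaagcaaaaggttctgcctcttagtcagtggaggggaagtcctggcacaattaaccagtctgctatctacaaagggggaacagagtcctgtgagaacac
The second run of capitals in Ms4a4b is an AP-1 match. Of the 50-base words of Ms4a4c transcripts, 8.19% also occur in other genes, mostly in Ms4a4b, and Ms4a4b shares 2.4% of its words. Ms4a4b had counts that were not whole in 13 of the 17 libraries where it was above 0, and Ms4a4c in 13 of 21. Their counts may therefore hold reads divided between copies. Ms4a4a and Ms4a14 share 0% of their words with other genes, Ms4a7 shares 0.306%, and the counts of these 3 genes were whole in all libraries, within 0.01.

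The Ms4a6 genes were present in all groups. Ms4a6c, described mainly in monocytes and macrophages, had a lowest level of 772, a median of 1318 and a highest of 1748 CPM in MLC after seizure, against 76.7, 53.3, 86.7 and 165 CPM in MG (a log2 fold change of 3.74, SE 0.41, adjusted p = 1.97e-06). After saline it had 1150, 1062 and 693 CPM in MLC, against 100.3, 113 and 68.9 CPM in MG (3.37, SE 0.48, adjusted p = 0.000160). Ms4a6b had 997, 1298 and 1916 CPM as lowest, median and highest level in MLC after seizure, against 222, 222, 452 and 453 CPM in MG (2.03, SE 0.30, adjusted p = 0.000116). After saline it had 1074, 1090 and 732 CPM in MLC, against 262, 291 and 179 CPM in MG (1.98, SE 0.36, adjusted p = 0.00266). For both genes all MLC libraries were above all MG libraries.

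Ms4a6d differed least among the members that were well detected. It had 607, 925 and 1229 CPM as lowest, median and highest level in MLC after seizure, against 393, 355, 518 and 714 CPM in MG (a log2 fold change of 0.89, SE 0.30, adjusted p = 0.0853). After saline it had 737, 606 and 460 CPM in MLC, against 385, 465 and 376 CPM in MG (0.56, SE 0.38, adjusted p = 0.959). The groups overlapped after either treatment. The seizure difference passed with DESeq2 (adjusted p = 0.00515), with RLE scaling (0.0301) and with no filter on low counts (0.0151), over a range of 0.00515 to 0.207.

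The 3 Ms4a6 genes also resemble each other. The coding sequences of Ms4a6b and Ms4a6c are 85.4% identical, those of Ms4a6b and Ms4a6d 81.2% and those of Ms4a6c and Ms4a6d 79.0%. The stretch with the fewest differences, coding bases 100 to 189 in the GENCODE M21 transcripts of GRCm38, is shown with the 6 differing positions in capitals.
Ms4a6b: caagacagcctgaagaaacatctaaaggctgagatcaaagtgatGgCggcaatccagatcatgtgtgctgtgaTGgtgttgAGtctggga
Ms4a6c: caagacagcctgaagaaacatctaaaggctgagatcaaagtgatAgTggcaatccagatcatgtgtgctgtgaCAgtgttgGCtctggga
Ms4a6d: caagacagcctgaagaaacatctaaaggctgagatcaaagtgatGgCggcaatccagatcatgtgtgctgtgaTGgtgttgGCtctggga
Of 50-base words in their transcripts, 10.5% in Ms4a6c, 3.57% in Ms4a6b and 2.54% in Ms4a6d occur in other genes. Counts were not whole in 21 of 21 libraries for Ms4a6b and Ms4a6c and in 20 of 21 for Ms4a6d, so reads may be divided among the 3. The windows of Ms4a6c and Ms4a6b carry the same ISRE letters in capitals, and that of Ms4a6c has an EICE match on the other strand after the start as its second run.
Ms4a6c (chr19:11469118-11469417, plus strand): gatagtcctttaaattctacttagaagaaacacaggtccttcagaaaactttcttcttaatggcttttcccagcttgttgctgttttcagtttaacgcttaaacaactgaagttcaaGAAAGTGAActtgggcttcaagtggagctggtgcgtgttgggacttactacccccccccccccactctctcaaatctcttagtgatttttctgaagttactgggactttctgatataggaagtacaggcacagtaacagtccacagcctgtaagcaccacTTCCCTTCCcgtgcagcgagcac
Ms4a6b (chr19:11518309-11518608, plus strand): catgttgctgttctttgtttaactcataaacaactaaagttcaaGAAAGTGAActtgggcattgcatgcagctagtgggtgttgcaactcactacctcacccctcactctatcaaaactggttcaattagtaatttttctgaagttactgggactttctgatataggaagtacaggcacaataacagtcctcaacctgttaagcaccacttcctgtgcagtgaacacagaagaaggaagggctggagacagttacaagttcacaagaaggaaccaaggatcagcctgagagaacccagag

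Ms4a8a, reported in alternatively activated macrophages, was nearly absent. It had 76 counts in MLC replicate 3 after seizure (2.24 CPM), 0 in the other 5 MLC libraries and 0 in all 4 MG libraries. After saline the counts were 3, 0 and 6 in MLC, against 8, 1 and 2 in MG. Its 265 counts in NoTx replicate 2 after saline (7.23 CPM) were the highest of all libraries, against 8 counts in NoTx replicate 1. Neither comparison passed (adjusted p = 0.141 after seizure and 1 after saline), and the groups overlapped. Over the group, 3 counts in MG after seizure would make the mean level at least 12.3-fold higher in MLC, from a single library.

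**Figure D2:**
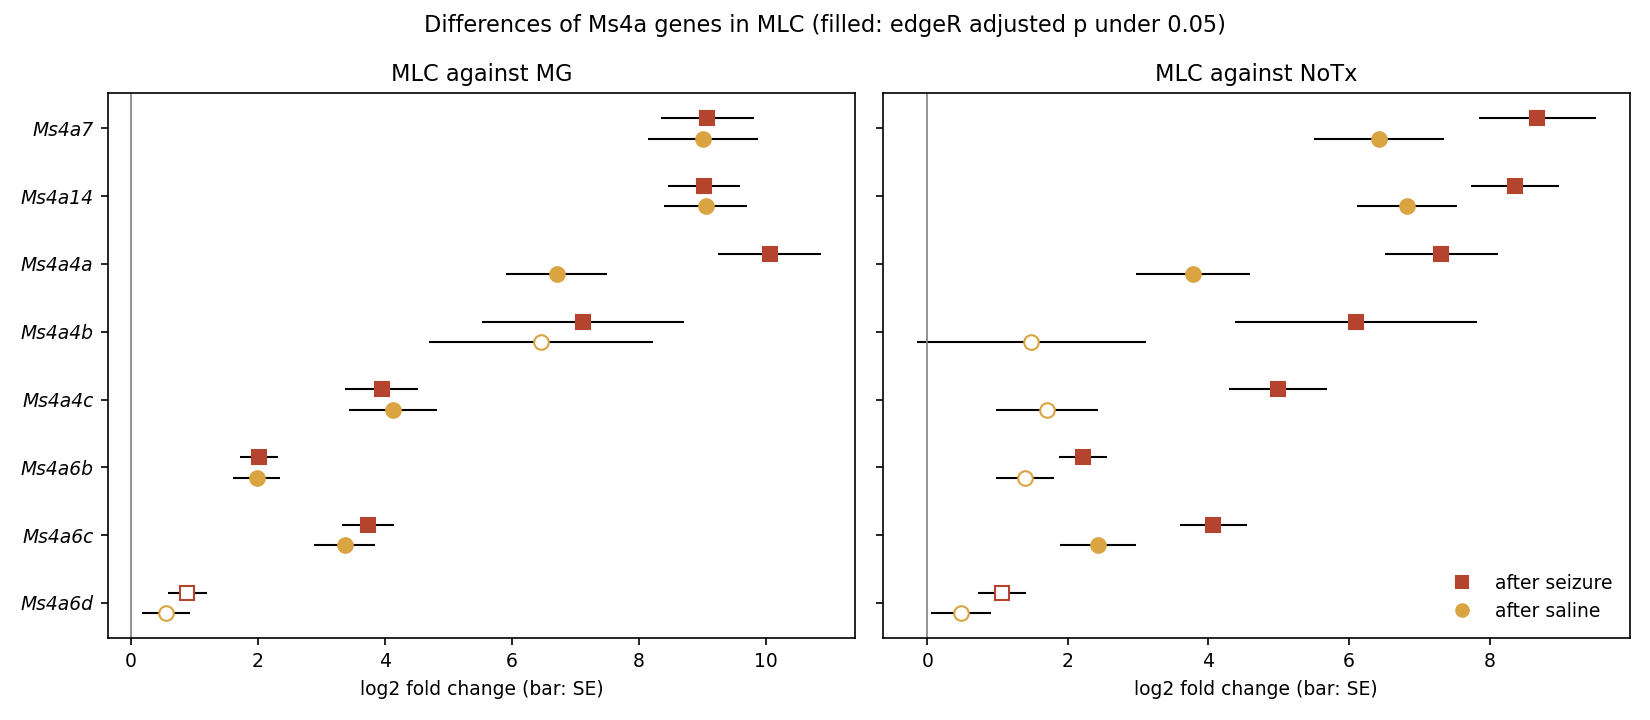
Points are log2 fold changes of MLC against MG (left) and against NoTx (right) with SE bars, squares after seizure and circles after saline, filled where the edgeR adjusted p was under 0.05. Ms4a7 and Ms4a14 lie near 9 against MG and Ms4a6d lies nearest to 0. Ms4a8a is not drawn.

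Against microglia of mice without a transplant, the same MLC libraries gave lower log2 fold changes after saline than against MG for all 9 members. In the shared fit this contrast equals MG against NoTx after saline, given below, where edgeR called 0 of 9 members. Ms4a8a was below 0 in both MLC comparisons, at -0.52 against MG and -5.85 against NoTx (SE 2.85, edgeR adjusted p = 0.648). This gene had 3, 0 and 6 counts in MLC and 8 and 265 in NoTx after saline, without overlap. It was lower in MLC with limma-voom (-4.74, adjusted p = 0.0441), and the edgeR value without NoTx replicate 2 was -1.59 (adjusted p = 1). After seizure 7 of 9 members were higher in MLC than in NoTx, where 2.55% of all genes were higher. After saline 4 of 9 were higher, where 0.445% of all genes were. The 2 comparisons share their MLC libraries with those against MG. Ms4a7 had 6.77, 6.75 and 8.28 CPM in NoTx after seizure (log2 fold change 8.68, SE 0.83, adjusted p = 3.62e-07) and 26.1 and 24.1 CPM after saline (6.43, SE 0.93, adjusted p = 0.000303). Ms4a14 had 0.415, 0.532 and 0.353 CPM in NoTx after seizure (8.36, SE 0.63, adjusted p = 1.19e-08) and 0.709 and 1.26 CPM after saline (6.83, SE 0.71, adjusted p = 3.51e-06). Neither gene had an MLC library as low as any NoTx library.

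Ms4a4a had 0.415, 0.486 and 2.12 CPM in NoTx after seizure (log2 fold change 7.32, SE 0.80, adjusted p = 2.41e-06) and 5.29 and 14.0 CPM after saline (3.78, SE 0.82, adjusted p = 0.0171). Ms4a6c had 99.0, 96.8 and 32 CPM in NoTx after seizure (4.07, SE 0.48, adjusted p = 6.45e-06) and 117 and 243 CPM after saline (2.43, SE 0.54, adjusted p = 0.0225). These 2 saline calls were lost without either NoTx library, which left 2 of 9 members called. Without NoTx replicate 2 their log2 fold changes were 4.64 and 3.04, and without NoTx seizure replicate 3 that of Ms4a4a after seizure was 8.44. Without NoTx saline replicate 1 or 2, the adjusted p of Ms4a4a was 0.357 or 0.109 and that of Ms4a6c 0.444 or 0.0910, and Ms4a6c also missed the limit without MLC replicate 1 (0.0601) or 2 (0.0515). Ms4a4c had 13.1, 11.7 and 7.02 CPM in NoTx after seizure (4.99, SE 0.70, adjusted p = 5.32e-05) and 20.5 and 93.3 CPM after saline (1.70, SE 0.72, adjusted p = 0.512). Without NoTx replicate 1 or 2 the saline log2 fold change of Ms4a4c was 0.99 or 3.17, and limma-voom called it (2.08, adjusted p = 0.00623). Ms4a6b had 364, 333 and 190 CPM in NoTx after seizure (2.21, SE 0.34, adjusted p = 0.000182) and 288 and 447 CPM after saline (1.39, SE 0.41, adjusted p = 0.132). The MLC libraries were above all NoTx libraries for both genes after either treatment, also where the test was not passed.

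Ms4a4b had 0.276, 0 and 0 CPM in NoTx after seizure, 4 counts in all (log2 fold change 6.10, SE 1.72, adjusted p = 0.0365), and 1.44 and 5.71 CPM after saline (1.48, SE 1.63, adjusted p = 1). The seizure call was lost in 9 of 19 other fits, among them those without the 11b libraries (0.0537), without MLC replicate 4 (0.0603) or 6 (0.0602) and without NoTx replicate 2 (0.110) or 3 (0.121). Without NoTx replicate 1, which held all 4 counts, it was called (0.00751), with NoTx at 0 counts. Ms4a6d had 672, 439 and 215 CPM in NoTx after seizure (1.06, SE 0.34, adjusted p = 0.0677) and 342 and 520 CPM after saline (0.48, SE 0.43, adjusted p = 1), overlapping with MLC. The seizure difference of Ms4a6d passed in 6 of 19 other fits (adjusted p from 0.00391 to 0.275). Median log2 fold changes of the 9 members were 4.99 after seizure, with Ms4a8a at its bound, and 1.70 after saline, against 0 and 0.08 over all genes.

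Levels per kilobase of exon, which adjust roughly for the length of each member, showed a different make-up of the family in MLC. Ms4a6d made up 20.9 ± 1.03% of the family's summed CPM per kilobase in MLC after seizure and 68.3 ± 3.56% in MG (SD, n = 6 and 4). After saline the shares of Ms4a6d were 19.1 ± 0.23% in MLC and 68.7 ± 4.57% in MG (n = 3 each). Ms4a7 held 26.2 ± 3.52% in MLC and 0.269 ± 0.311% in MG after seizure, and 26.6 ± 2.55% and 0.270 ± 0.138% after saline. Ms4a6c held 24.4 ± 1.41% in MLC and 10.7 ± 2.07% in MG after seizure. Ms4a6b held 12.3 ± 1.56% in MLC and 17.7 ± 2.68% in MG after seizure, and the libraries did not overlap. Ms4a4a, with an exon length of 836 bases, held 7.47 ± 2.28% in MLC and 0.0303 ± 0.0208% in MG after seizure, and Ms4a14 held 1.44 ± 0.295% in MLC. In NoTx, Ms4a6d held 68.2 ± 4.67% after seizure (n = 3) and 53.8 ± 5.27% after saline (n = 2), where Ms4a4c held 6.16 ± 3.89%. Exon lengths join all annotated exons of a gene in GENCODE M21, 4453 bases for Ms4a7 and 1735 for Ms4a6d. They may exceed the transcript expressed, so shares of different members compare only roughly. GENCODE M21 differs from the build used for counting, and shares of a total are not independent of each other.

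**Figure D3:**
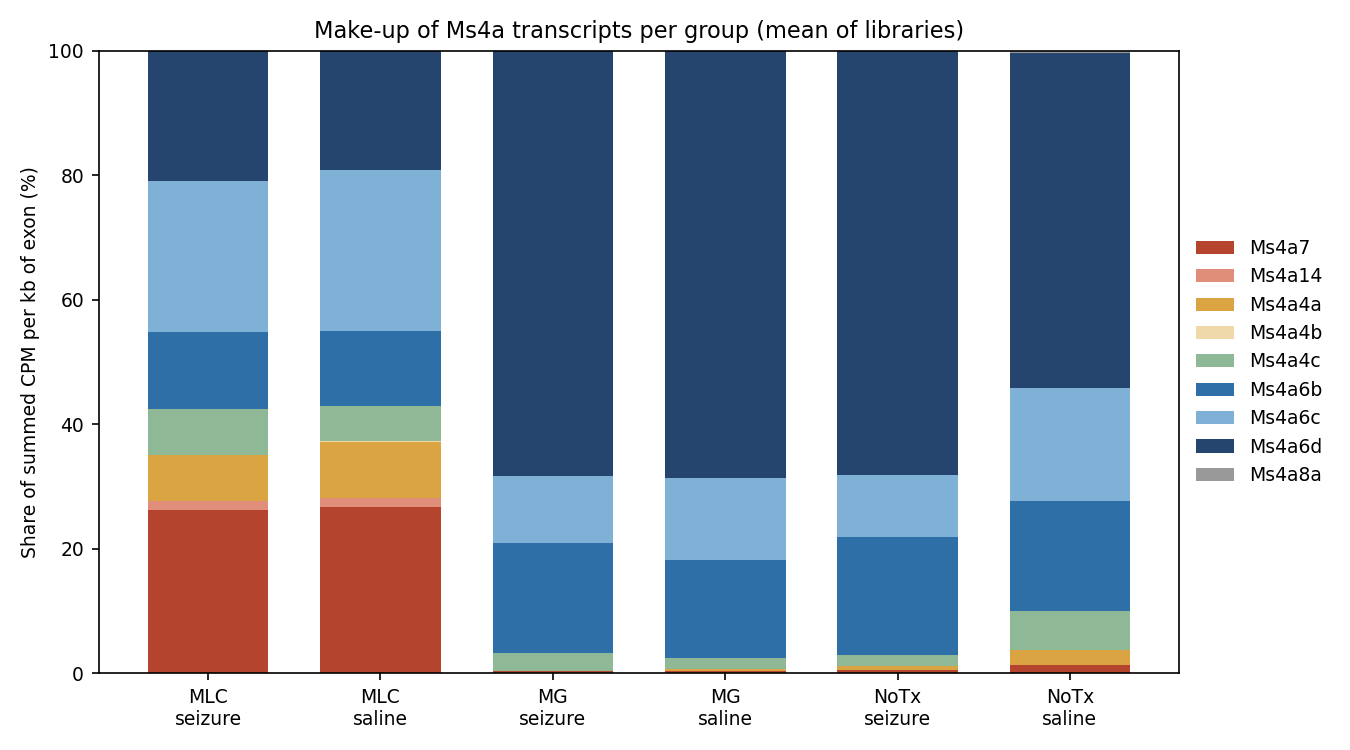
Bars show the mean share of each member in the summed CPM per kilobase of exon, in percent, for each group. Ms4a6d fills 68.3% in MG and 20.9% in MLC after seizure, and Ms4a7 fills 26.2% in MLC.

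In the order of group means, the MLC groups took the first 2 places for 8 members, all but Ms4a8a, and overlapped with each other for each. Seizure came before saline in MLC for these members except Ms4a4b. For Ms4a7, Ms4a14, Ms4a4a, Ms4a4c, Ms4a6b and Ms4a6c the next place was NoTx after saline, whose libraries were all below those of MLC after saline. Below that, NoTx after saline stood apart from NoTx after seizure for Ms4a7 and Ms4a14, and apart from MG after saline for Ms4a4a and Ms4a4b. For Ms4a4a, NoTx after seizure also stood apart from MG after seizure. The other neighbours in the order overlapped, among them all neighbours for Ms4a6d and Ms4a8a and, for Ms4a4b, MLC after seizure and NoTx after saline.

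Between transplanted microglia and microglia without a transplant, edgeR called 0 of 9 members after seizure, where 0.0742% of all genes were called, and 0 after saline, where 0.053% were. DESeq2 called 1 and 3 members and limma-voom 0 and 1. At an unadjusted p under 0.05 there were 1 and 5. After saline all 9 log2 fold changes were negative, with a median of -2.42 against 0.02 over all genes. Ms4a7 had 6.38, 4.31 and 1.92 CPM in MG and 26.1 and 24.1 CPM in NoTx after saline (-2.58, SE 0.68, adjusted p = 0.447), without overlap. Ms4a4a was at 2.49 CPM or less in MG and at 5.29 and 14.0 CPM in NoTx (-2.92, SE 0.70, adjusted p = 0.240). After seizure Ms4a4a had a log2 fold change of -2.74 (SE 0.71, adjusted p = 0.219) and the well-detected Ms4a6b and Ms4a6d had 0.19 (SE 0.33) and 0.16 (SE 0.35).

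The summed level of 8 blood monocyte markers was also lower in MG than in NoTx after saline. It was 8.05 to 20.3 CPM in MG and 156 and 1106 CPM in NoTx replicates 1 and 2 after saline, and 0.849 to 54.4 CPM in MG and 6.24 to 139.8 CPM in NoTx after seizure. In MLC it was 1.74 to 9.02 CPM after seizure and 3.10 to 7.60 CPM after saline. All 8 markers were above 0 in MLC, MG and NoTx after saline, and Vcan was at 0 in NoTx after seizure. NoTx replicate 2 after saline, the library with the most Ms4a8a, also had the highest levels of Ms4a4a, Ms4a4b and Ms4a4c among the microglial libraries and the only 24 counts of Ms4a3, a gene of granulocyte and monocyte progenitors. From library to library, members went both ways with the monocyte sum. NoTx replicate 3 after seizure had the highest sum of its group, 139.8 CPM. It also had the highest Ms4a4a (2.12 CPM) and Ms4a7 (8.28 CPM) of the group, and the lowest Ms4a14, Ms4a4c, Ms4a6b, Ms4a6c and Ms4a6d. Ms4a7 was alike in NoTx replicates 1 and 2 after saline. The summed border macrophage markers were 129 to 193 CPM in MG and 281.5 and 275.5 CPM in NoTx after saline. Pf4, a chemokine gene on that list, was lower in MG (log2 fold change -4.19, SE 0.67, edgeR adjusted p = 0.0113). F13a1 had the largest gap in mean level, 0.918 CPM in MG and 129 CPM in NoTx, and did not pass (edgeR adjusted p = 0.5435). Stab1, at 133 CPM in MG and 77.8 CPM in NoTx, and Siglec1, at 1.00 and 0.0919 CPM, went the other way. The summed neutrophil markers overlapped after saline, at 443 to 779 CPM in MG and 359 and 830 CPM in NoTx replicates 1 and 2. Of these markers, S100a8 had 0.444 to 1.40 CPM in MG and 8.55 and 245.7 CPM in NoTx replicates 1 and 2. It did not pass (edgeR adjusted p = 0.152). Csf3r, which made up most of the MG sum, went the other way without a call, with means of 645 CPM in MG and 194 CPM in NoTx (log2 fold change 1.73). The other neutrophil markers had lower means in MG than in NoTx, such as Camp at 0.379 and 145 CPM, and none was called. The part of monocytes, border macrophages or neutrophils in the NoTx levels was not tested.

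Seizure against saline gave no call among the members. EdgeR called 0 of 9 in MLC, where 0% of all genes were called, 0 in MG, where 0.0371% were, and 0 in NoTx, where 0.106% were. DESeq2 called 0 members in MLC, 1 in MG and 2 in NoTx, limma-voom 0 in each, and unadjusted p values under 0.05 numbered 0, 1 and 7. In MLC, Ms4a7 had 2977 ± 1061 CPM after seizure and 2163 ± 626 CPM after saline (SD, n = 6 and 3; log2 fold change 0.46, SE 0.54, adjusted p = 0.838), and the median change of the members was 0.46 against -0.06 over all genes. In MG, Ms4a4a had 0.119 ± 0.0898 CPM after seizure and 1.26 ± 1.07 CPM after saline (-3.08, SE 0.70, adjusted p = 0.198), without overlap. In NoTx it had 1.01 ± 0.964 CPM after seizure and 9.65 ± 6.16 CPM after saline (-3.27, SE 0.72, adjusted p = 0.117). The other NoTx changes were negative for 7 members, from -0.31 for Ms4a6b to -5.40 for Ms4a4b among those above 0 counts in both groups, and Ms4a6d was at 0.04 (SE 0.42). Median changes were 0.28 in MG and -1.79 in NoTx, against -0.08 and 0 over all genes.

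Whether the MLC against MG difference itself changed with seizure was tested as an interaction, in which a batch effect common to both kinds of cells cancels. EdgeR called 0 of 9 members and 0% of all genes, DESeq2 1 member and limma-voom 0, and 2 members had an unadjusted p under 0.05. Ms4a4a had an interaction of 3.35 on the log2 scale (SE 0.90, edgeR adjusted p = 0.893, DESeq2 adjusted p = 0.0299). Ms4a7, Ms4a14, Ms4a4c and Ms4a6b lay at 0.07 (SE 0.78), -0.02 (SE 0.48), -0.17 (SE 0.77) and 0.04 (SE 0.45).

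The members lie on chromosome 19 among 19 genes annotated under Ms4a names. In GENCODE M21 the order is Ms4a14 and Ms4a7 on the minus strand, then Ms4a4a, Ms4a4c, Ms4a4b, Ms4a6c and Ms4a6b on the plus strand, and Ms4a6d on the minus strand. Ms4a8a lies apart, with other family genes between it and Ms4a14. After seizure, the 7 members called in MLC against MG were those from Ms4a14 to Ms4a6b in this order. Between Ms4a6c and Ms4a6b lies the predicted gene Gm8369, which had 22.5 CPM in MLC and 1.03 CPM in MG after seizure (log2 fold change 4.52, adjusted p = 0.0213), and 23.0 and 0.689 CPM after saline (5.05, adjusted p = 0.0750). Ms4a4d, between Ms4a6b and Ms4a6d, had 1.92 CPM in MLC and 0.00663 CPM in MG after seizure and did not pass (adjusted p = 0.0518). It held 257 counts over all libraries. Of 6 flanking genes only Ccdc86, a nucleolar protein gene, had enough counts to be tested, with log2 fold changes of -0.32 after seizure (adjusted p = 0.734) and -0.07 after saline (adjusted p = 1).

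**Figure D4:**
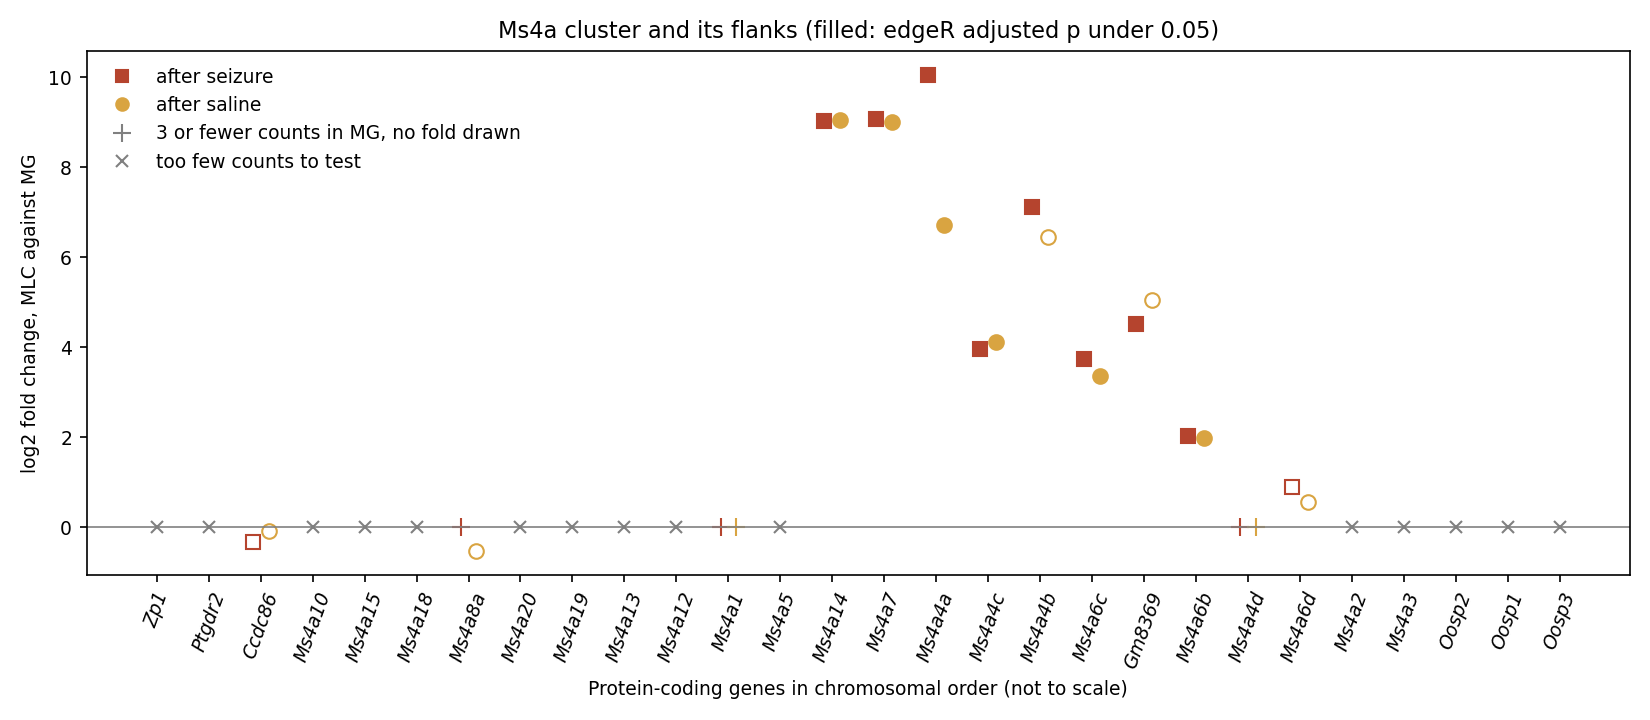
Log2 fold changes of MLC against MG for the protein-coding genes of the Ms4a cluster and its flanks in chromosomal order, not to scale, with squares after seizure and circles after saline, filled where the edgeR adjusted p was under 0.05. Grey crosses mark genes with too few counts to test, and plus signs genes with 3 or fewer counts in MG, drawn without a fold. The run from Ms4a14 to Ms4a6b holds all filled points, and Ccdc86 lies near 0.

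Of the other 12 Ms4a genes, Ms4a10, Ms4a12, Ms4a13, Ms4a18, Ms4a19 and Ms4a5 had 0 counts in all 21 libraries. Ms4a15, Ms4a2 and Ms4a20 had 2 counts each over all libraries and Ms4a1 had 53, of which 24 were in NoTx replicate 2 after saline. Ms4a1 did not pass (adjusted p = 0.232 after seizure and 0.902 after saline). Tmem176a and Tmem176b, relatives of the family outside the cluster that act in intracellular vesicles, were also higher in MLC. Tmem176b had 1265 CPM in MLC and 264 CPM in MG after seizure (log2 fold change 2.26, SE 0.22, adjusted p = 3.62e-07), and 1407 and 318 CPM after saline (2.15, SE 0.27, adjusted p = 2.73e-05). Tmem176a had log2 fold changes of 1.95 (SE 0.30, adjusted p = 0.000175) after seizure and 2.35 (SE 0.37, adjusted p = 0.000489) after saline.

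The genes nearest in pattern were found among 10218 genes whose average log2 CPM was 2 or more, by the root mean square difference of centred log2 CPM over the 6 group means. These values describe group means that share a fit and libraries, and carry no test. Ms4a7 and Ms4a14 were nearest to each other (0.36), followed for both by Spic, a transcription factor of iron-recycling macrophages (0.42 from Ms4a7 and 0.47 from Ms4a14). The third was Serpinb8, a protease inhibitor, for Ms4a7 (0.43) and the chemokine Ccl8 for Ms4a14 (0.49). Spic had 45.8 CPM in MLC and 0.0570 CPM in MG after seizure. Ms4a4a was nearest to Gm56663 (0.37), the fatty acid hydroxylase Cyp4f18 (0.58) and the inflammasome sensor Nlrc4 (0.61). Ms4a4c was nearest to Gm47445 (0.31), the small GTPase Rap2b (0.38) and AI504432 (0.45), and Ms4a4b to Sestd1 (0.62), Gm35853 (0.69) and Ldlrad3 (0.71). Ms4a6c was nearest to Lyz2, the lysozyme of macrophages (0.22), Pgap1 (0.30) and Rap2b (0.32). Lyz2 had 7393 CPM in MLC and 569 CPM in MG after seizure. Ms4a6b was nearest to Dnajb14 (0.17), the inhibitory receptor gene Milr1 (0.19) and the methyl-DNA reader Mbd2 (0.21), and Ms4a6d to Slc6a20b (0.09), the metalloproteinase inhibitor Timp2 (0.09) and Rnf19b (0.09). Ms4a8a was nearest to Crip1 (0.54), Akap5 (0.60) and Xlr3b (0.68), all higher in NoTx after saline than in the other groups.

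Receptor and adaptor genes tied to MS4A proteins in the literature did not, as a list, follow the family. Of 13 listed genes, 1 was higher and 2 were lower in MLC than in MG after seizure, and 1 was higher and 0 lower after saline. Over all genes tested, 2.51% were higher and 3.37% lower after seizure, and 0.779% and 0.806% after saline. The median log2 fold changes of the 13 genes were -0.21 after seizure and -0.38 after saline. Clec7a, which encodes dectin-1, was higher, with 187 ± 65.7 CPM in MLC and 77.6 ± 36.5 CPM in MG after seizure (1.27, SE 0.36, adjusted p = 0.0359), and with a log2 fold change of 1.87 (SE 0.44, adjusted p = 0.0290) after saline. Trem2 was lower after seizure, at 1162 ± 288 CPM in MLC and 2413 ± 469 CPM in MG (-1.05, SE 0.23, adjusted p = 0.00573), and did not pass after saline (-0.72, adjusted p = 0.431). Plcg2, a phospholipase downstream of such receptors, was lower after seizure (-1.51, SE 0.42, adjusted p = 0.0335).

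Marker lists for the cells sorted show what else moved with the family. Of 11 homeostatic microglia genes tested, 9 were lower in MLC than in MG after seizure and 8 after saline. Over all genes tested, 3.37% were lower after seizure and 0.806% after saline. The summed level of the homeostatic genes was 17758 to 24652 CPM in MLC and 50079 to 82472 CPM in MG after seizure. After saline it was 12814 to 25561 and 57928 to 67511 CPM. Sall1, the factor that defines microglial identity, had a log2 fold change of -5.67 after seizure (adjusted p = 4.23e-08). In the list of 10 border macrophage genes, MLC was higher for 5 after seizure and for 2 after saline. Over all genes tested, 2.51% were higher after seizure and 0.779% after saline. The border macrophage sums were 977 to 1494 CPM in MLC and 36.9 to 132 CPM in MG after seizure, and 1144 to 2104 and 129 to 193 CPM after saline. Lyve1, which defines a class of border macrophages, was at 0 in all 6 MLC libraries after seizure, and Mrc1, the mannose receptor, had 842 ± 180 CPM there. The part of border macrophages in the Ms4a levels was not tested.

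Of the 8 blood monocyte genes 0 were called in MLC against MG after either treatment with edgeR. For this and the following lists, the shares over all genes were 2.51% higher and 3.37% lower after seizure, and 0.779% and 0.806% after saline. Of 8 B cell genes, Pax5 was at 0 in MLC and MG, and of the 4 tested 1 was lower after seizure, Ighm (log2 fold change -1.17, adjusted p = 0.0204), and 0 passed after saline. B cell marker sums, mostly Ighm and Cd79b, were 230 to 633 CPM in MLC and 618 to 1614 CPM in MG after seizure. Of 7 neutrophil genes tested, 1 was lower in MLC after seizure, Csf3r (-2.30, adjusted p = 0.0208), and 0 passed after saline. Neutrophil sums, mostly Csf3r, were 18.0 to 140.2 CPM in MLC and 124 to 360 CPM in MG after seizure, with Ly6g at 0 in both. S100a8 had means of 1.40 CPM in MLC and 0.995 CPM in MG after seizure. Of 4 T and NK cell genes tested 0 passed, and none of the 7 mast cell genes, with Cpa3 at 0 in MLC and MG, had enough counts to be tested.

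**Figure D5:**
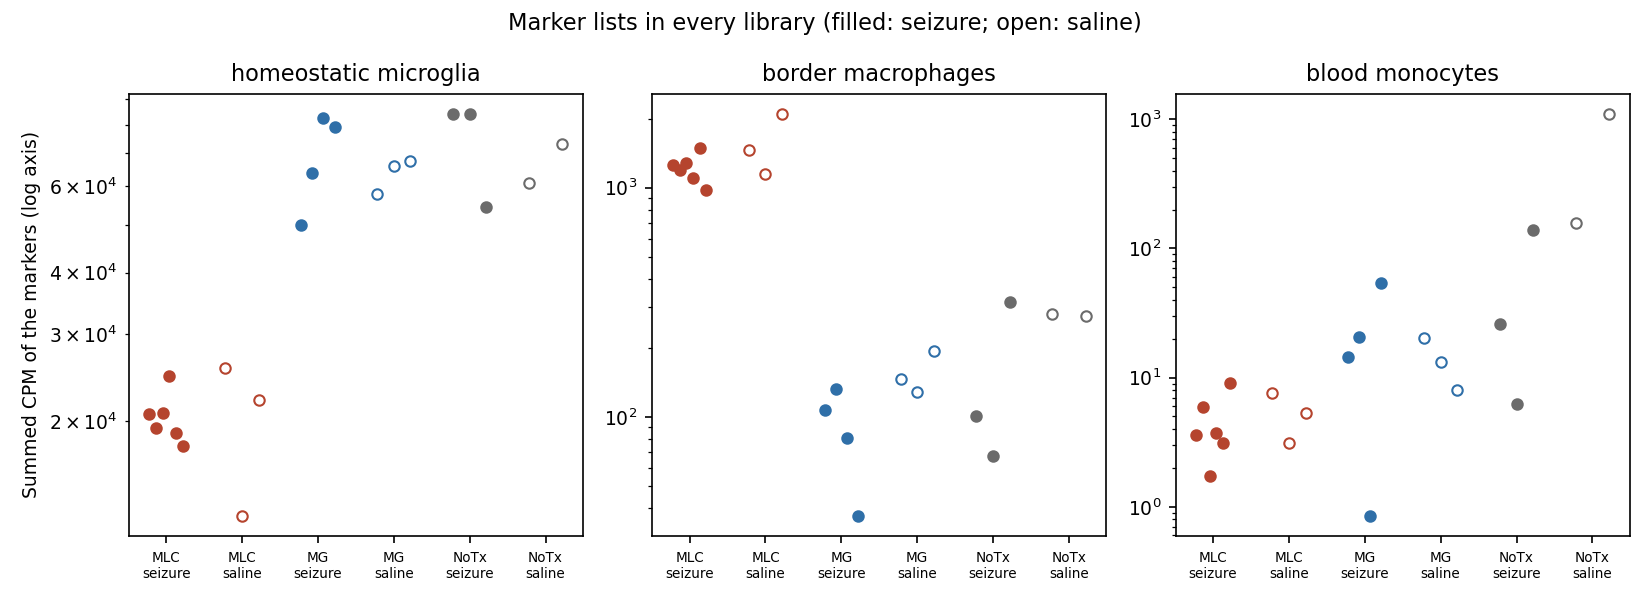
Summed CPM of 3 marker lists in each library on a log axis, with filled points for seizure and open points for saline. Homeostatic microglia markers lie lower and border macrophage markers higher in MLC than in MG, and blood monocyte markers reach 1106 CPM in NoTx replicate 2 after saline.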

How the data were processed

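The authors deposited a table of estimated counts per gene, made, per the submitters' processing notes, with Trim Galore 0.6.7, cutadapt 3.4, STAR 2.7.10a, featureCounts and Subread 2.4.5 on GRCm39. Some deposited counts are fractional, and no source used here names the step that split reads. Libraries came from RNA of sorted cells and a low-input kit, per the labels' protocols. Counts were rounded to whole numbers. One edgeR 4.0.16 quasi-likelihood fit (TMM scaling, filter by group, robust) with 6 group means held all 21 libraries and gave 10 comparisons, adjusted by Benjamini and Hochberg over 18867 genes, with a limit of 0.05. SEs are the absolute log2 fold change divided by the square root of edgeR's F. CPM are TMM-scaled and given as mean ± SD. Other fits used DESeq2 1.42.0, limma 3.58.1 and the settings of the closing section, and the code was tested on simulated data. The labels call samples biological replicates without naming animals, so p values measure the spread between samples, which may be technical.

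Named were all members, the other Ms4a genes, Tmem176a and Tmem176b, the 3 nearest genes in pattern, the called genes of the signalling list and 3 flanking genes on each side. Marker genes outside this rule were named after their values were seen. Members and lists were chosen with earlier results of these data known. Promoter windows come from RefSeq (GRCm38.p6), and gene order, exon lengths and transcripts from GENCODE M21 (GRCm38), an older build than that of the counts. Coding sequences were aligned with Biopython 1.88 and MAFFT 7.526.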

Additional observations from a re-analysis of the deposited data

Results flagged for a closer look

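In MG after seizure, replicate 3 had 15.3 CPM of Ms4a7, and the other 3 libraries had 1.08 to 3.02 CPM, a gap that was large for the range of the group by Dixon's test. In MLC after seizure, replicate 3 had 2.24 CPM of Ms4a8a, and the other 5 libraries had 0. MLC replicate 3 is one of the libraries coded 11b. With 0 in the other 5 libraries, any value of Ms4a8a above 0 would have been marked. Dixon's test was run on 17 sets with a range above 0, each a member in MLC or MG after seizure (6 or 4 libraries). Of these sets 2 were marked. For independent, normally distributed values chance alone marks about 1 in 20, but these sets share libraries.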

How the results depend on the processing

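Over 31 other settings, the 24 called differences of members kept their direction in every fit that gave a value, 413 times past the limit and 16 times not. Differences that were not called gained a call 35 times and 75 times had another sign without a call. The calls lost were Ms4a4b in MLC against MG after seizure (adjusted p = 0.055 without low-complexity libraries), Ms4a4b in MLC against NoTx after seizure, and Ms4a6c and Ms4a4a in MLC against NoTx after saline. The cause was not tested. In MLC against NoTx after saline, limma-voom called 7 members, among them Ms4a8a as lower in MLC, and without 1 library the edgeR count was 2 to 4. In MG against NoTx after saline, DESeq2 called 3, and limma-voom, the fit with no low-count filter and that without low-complexity libraries (MG seizure replicates 3 and 4 and MLC seizure replicate 5) called 1 each. After seizure, DESeq2 and the unfiltered fit called 1 each. For seizure against saline in MG these 2 fits called 1 each. In NoTx, DESeq2 called 2, the unfiltered fit 1, the fit without low-complexity libraries 1, and the count without 1 library was 0 to 1 (Ms4a4a without NoTx seizure replicate 3). For the interaction DESeq2 called 1.

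Under RLE scaling the all-gene median (log2) was 0.12 in MLC against MG after seizure, with 545 higher and 477 lower genes in place of 474 and 635. That median was 0.13 in MLC against NoTx after seizure, and the interaction shifted by 0.13. In MLC against MG, calls were 1109 after seizure (502 to 2447 in other fits, 776 to 1117 without 1 library) and 299 after saline (273 to 1683, and 181 to 227). In MLC against NoTx they were 1162 after seizure (606 to 2748, and 712 to 1193) and 237 after saline (222 to 1542, and 79 to 150). In MG against NoTx they were 14 after seizure (0 to 627, and 5 to 38) and 10 after saline (2 to 420, and 1 to 17). For seizure against saline they were 7 in MG (0 to 274), 0 in MLC (0 to 130) and 20 in NoTx (0 to 218, and 4 to 19 without 1 library), and 0 in the interaction (0 to 143).

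Deviations of libraries with the same replicate number correlated from -0.06 to 0.13 over 17 pairs. In the seizure codes F1, M1, F2 and M2 recur across the kinds of cells, and the labels do not explain them. The replicate numbers do not follow these codes in MLC, where replicate 3 is M1 and replicate 4 is F2, against F2 and M2 in MG. The correlations therefore cannot show whether samples are paired by code, which was not tested. With a block on the replicate number, MLC against NoTx after seizure had 6 called members in place of 7 (Ms4a4b, adjusted p = 0.143). MLC against MG had 7 after seizure and 6 after saline. Depth limits Ms4a8a and Ms4a4b, whose levels in MG and in NoTx after seizure rest on few counts.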
